A study of Mus musculus with 9 samples.

Results

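Endothelial transcripts were read in RNA from myeloid cells that had been sorted out of dystrophic muscle. The 10 genes followed, of the 50559 listed in each count table, were *Cdh5*, *Pecam1*, *Cldn5*, *Emcn*, *Kdr*, *Flt1*, *Tek*, *Aplnr*, *Egfl7* and *Fabp4*. They were picked by symbol as markers of endothelium and were chosen by their measured levels and changes across all 3 groups of these same libraries. Their changes are therefore given as a description, with no *P* value printed for any of them. Calls among them are counted later beside the shares over all genes, and these calls and counts support nothing. All mice were *mdx*, a strain that lacks dystrophin, were 4.5 weeks old and had taken drugs or vehicle in their drinking water for 7 days. The vehicle group drank MediDrop with sucralose, the spironolactone group drank 250 mg/L of this mineralocorticoid receptor antagonist in it, and the prednisolone group drank 6.7 mg/L of this glucocorticoid in it. Each group gave 3 libraries of CD45+CD11b+ cells from quadriceps, each library a pool of 3 mice. The vehicle and spironolactone groups each held 4 males and 5 females and the prednisolone group 3 males and 6 females, and the sexes in each pool are not given in the sources used here. No untreated or healthy mice were among these libraries, the doses of the 2 drugs differ, and *P* values measure the spread between pools.

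Endothelial cells line blood vessels. They hold to each other through junction proteins such as VE-cadherin, respond to vascular endothelial growth factor (VEGF) through tyrosine kinase receptors, and rely on angiopoietin signaling through the receptor TEK for vessel stability. In skeletal muscle a dense bed of capillaries runs along the fibers, and its endothelium also takes up fatty acids for them. Several of these genes are not confined to endothelium: PECAM1 is also carried by leukocytes, FLT1 by monocytes, and FABP4 by adipocytes and macrophages.

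The sorted cells carried the transcripts of their label. *Ptprc*, which encodes CD45, averaged 604 ± 29.6 CPM with vehicle (SD, *n* = 3), where CPM are counts per 1000000 after TMM scaling (trimmed mean of M values). *Itgam*, which encodes CD11b, averaged 1237 ± 99.7 CPM, and the macrophage gene *Adgre1* 675 ± 40.1 CPM. The 13 genes of a myeloid list summed to 17967 to 21426 CPM with vehicle, 18632 to 20976 CPM with spironolactone and 19852 to 21065 CPM with prednisolone. The 10 endothelial genes summed to 156 to 216 CPM with vehicle, 244 to 380 CPM with spironolactone and 145 to 190 CPM with prednisolone. A large part of this sum was *Fabp4*, which macrophages also carry, at a mean of 90.7 of 188 CPM with vehicle. With spironolactone it was 122 of 308 CPM, and with prednisolone 56.3 of 162 CPM. In bulk RNA of this kind, more or fewer endothelial cells in a sort and more or less RNA per cell cannot be told apart. Nor can either be told from expression by the sorted myeloid cells themselves. These and other sources of the transcripts were not tested. The sort gate kept cells positive for both CD45, a leukocyte marker, and CD11b, and was set to leave out cells that lack either. It held no endothelial marker and did not separate live cells from dead ones.

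Library totals lay between 31469815 and 32943512 counts on genes, so depth differed little. All 10 genes passed the low-count filter, and the lowest single value was 11 counts, of *Cldn5* in vehicle replicate 1. In each group replicate 1 stood apart: spironolactone replicate 1 was the highest of its 3 for all 10 genes, vehicle replicate 1 the lowest of its group for 9 of the 10, and prednisolone replicate 1 the highest of its group for 9 of the 10. Spironolactone replicate 2 was the lowest of its group for all 10. The medians over the 10 genes are therefore also given without each of the 3 libraries numbered 1.

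**Figure D1:**
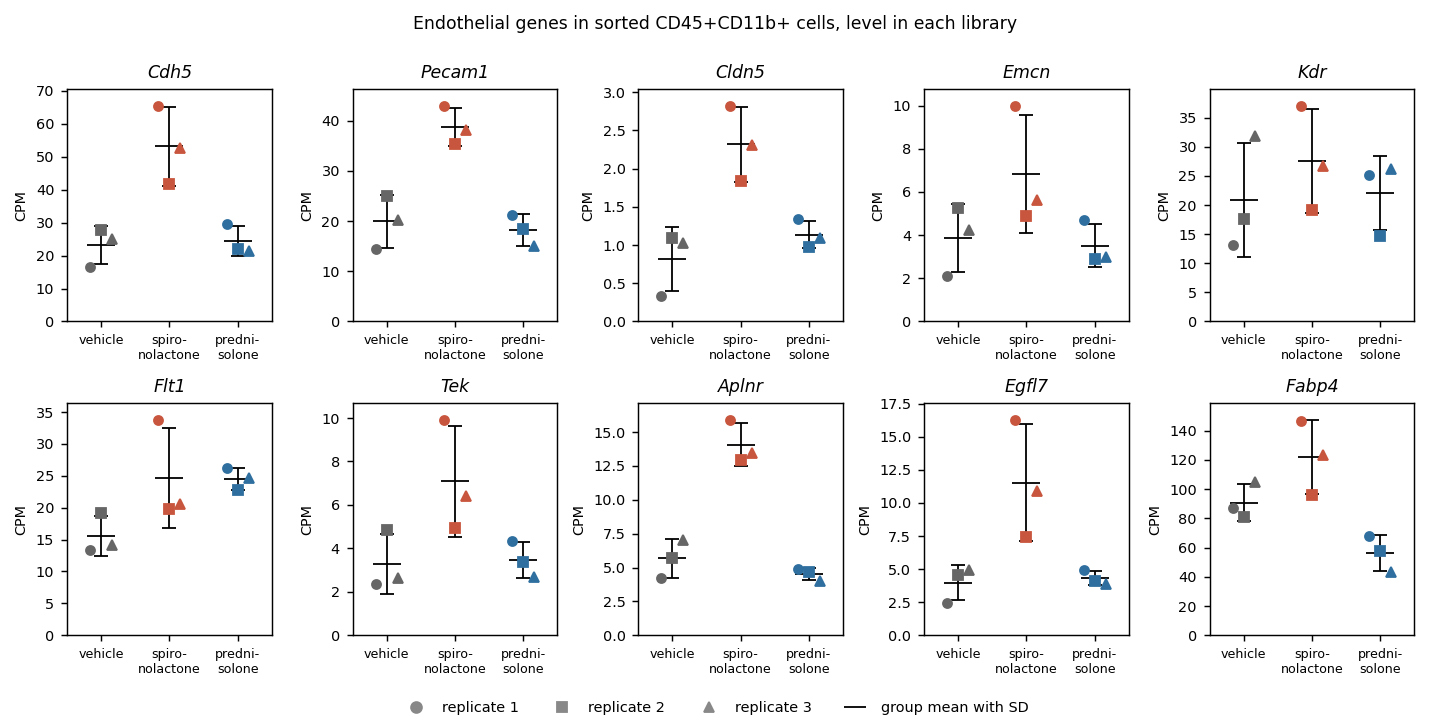
Level of each gene in CPM (vertical axes, each from 0) in the 3 libraries of each group, with one symbol per replicate and the group mean with its SD in black. Every spironolactone library lies above every vehicle library for 7 genes, and the 3 groups overlap for *Kdr*.

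The promoters of *Aplnr* and *Egfl7*, genes with large spironolactone differences and groups that did not overlap, are shown with the motifs searched. Each window is the 250 bases before the start of the gene's canonical transcript in GRCm39, which for *Egfl7* lies inside the annotated gene, plus strand, at chr2:84966319-84966568 for *Aplnr* and chr2:26473503-26473752 for *Egfl7*, 5′ to 3′, with matches in capitals.
Aplnr: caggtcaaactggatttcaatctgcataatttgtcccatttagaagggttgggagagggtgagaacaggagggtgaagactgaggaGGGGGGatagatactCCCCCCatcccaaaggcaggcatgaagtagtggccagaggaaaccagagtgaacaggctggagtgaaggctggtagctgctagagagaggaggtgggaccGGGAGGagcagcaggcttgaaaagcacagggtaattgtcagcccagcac
Egfl7: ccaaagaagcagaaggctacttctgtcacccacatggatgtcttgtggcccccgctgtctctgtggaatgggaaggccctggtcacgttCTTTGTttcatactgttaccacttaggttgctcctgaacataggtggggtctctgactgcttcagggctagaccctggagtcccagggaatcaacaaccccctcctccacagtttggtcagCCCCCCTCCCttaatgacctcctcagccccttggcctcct
The motifs, fixed by their letters, were searched on both strands. AGGAAG, the ETS core, was in 2 of the 10 promoters and in 28.9% of the 21757 promoters of the same length. The SOX motif ACAAAG was in 3 of the 10, *Egfl7* among them, and in 15.9% of all. The KLF motif CCNCCC was in 8 of the 10 and in 67.3% of all, the GATA motif AGATAA in 1 of the 10 and in 9.61%, and the FOX motif GTAAACA in 0 of the 10 and in 2.72%. The palindrome of the glucocorticoid and mineralocorticoid receptors was in none of the 10 and in 0.299% of all. These matches describe letters within 250 bases, and overlapping matches of one motif are joined in the capitals.

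With spironolactone, all 10 genes had a fitted mean above that of vehicle, by 0.40 to 1.54 on the log2 scale and with a median log2 fold change of 1.03. The median over all 16618 genes tested was 9.04e-05. With prednisolone the same genes lay on both sides of vehicle, from -0.69 to 0.66 with a median of 0.07, against -0.01 over all genes tested. Both drug comparisons share the vehicle libraries, so they are given side by side and not correlated. Between the drugs, spironolactone was above prednisolone by a median log2 fold change of 1.06, against 0.03 over all genes tested. Without spironolactone replicate 1, the spironolactone median was 0.83 against vehicle and 0.91 against prednisolone. Without vehicle replicate 1, the median was 0.84 for spironolactone and -0.15 for prednisolone against vehicle. Without prednisolone replicate 1, it was -0.11 for prednisolone against vehicle and 1.22 between the drugs.

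Of the junction and cell surface genes, *Cdh5*, *Pecam1* and *Cldn5* had all 3 spironolactone libraries above the other 6, and *Emcn* did not. *Cdh5* (chr8:104828231-104871143, plus strand) encodes VE-cadherin, the adhesion protein of endothelial junctions. Its level was 16.6, 27.8 and 25.2 CPM in the vehicle libraries, 65.3, 41.6 and 52.5 CPM with spironolactone and 29.6, 21.9 and 21.5 CPM with prednisolone. All 3 spironolactone libraries were above the other 6, and vehicle and prednisolone overlapped. Its log2 fold change was 1.20 ± 0.22 (SE) for spironolactone against vehicle, a 2.29-fold difference, and 0.07 ± 0.22 for prednisolone against vehicle. *Pecam1* (chr11:106543689-106641454, minus strand) encodes CD31, an adhesion protein of endothelium, platelets and leukocytes. Its level was 14.5, 25.1 and 20.3 CPM with vehicle, 42.9, 35.3 and 38.2 CPM with spironolactone and 21.3, 18.4 and 15.03 CPM with prednisolone. As for *Cdh5*, all 3 spironolactone libraries were above the other 6, here close together. The log2 fold change of *Pecam1* was 0.96 ± 0.18 with spironolactone and -0.13 ± 0.18 with prednisolone.

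*Cldn5* (chr16:18595597-18597012, plus strand) encodes claudin-5, a tight junction protein. It was the gene with the fewest counts, at 0.334, 1.09 and 1.03 CPM with vehicle, 2.82, 1.83 and 2.31 CPM with spironolactone and 1.34, 0.978 and 1.099 CPM with prednisolone. The spironolactone libraries again lay above all others, and prednisolone overlapped vehicle. Its log2 fold change was 1.50 ± 0.40 with spironolactone and 0.48 ± 0.41 with prednisolone, or 0.10 with prednisolone when vehicle replicate 1 was left out. *Emcn* (chr3:137046794-137138999, plus strand) encodes endomucin, a sialomucin of venous and capillary endothelium. It was 2.13, 5.24 and 4.24 CPM with vehicle, 9.97, 4.87 and 5.64 CPM with spironolactone and 4.68, 2.87 and 3.00 CPM with prednisolone. For *Emcn* the spironolactone libraries overlapped vehicle but not prednisolone, and the log2 fold change against vehicle was 0.82 ± 0.35, or 0.44 without spironolactone replicate 1. The prednisolone value was -0.14 ± 0.36.

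*Kdr* (chr5:76093487-76139884, minus strand) encodes VEGFR2, the main signaling receptor for VEGF-A. Its level was 13.1, 17.6 and 31.8 CPM with vehicle, 37.0, 19.1 and 26.6 CPM with spironolactone and 25.2, 14.8 and 26.3 CPM with prednisolone. All 3 groups overlapped, the spread within vehicle was wide, and the log2 fold change was 0.40 ± 0.40 with spironolactone and 0.08 ± 0.40 with prednisolone. The spironolactone value of *Kdr* was 0.13 without spironolactone replicate 1, 0.15 without vehicle replicate 1, 0.61 without spironolactone replicate 2 and 0.84 without vehicle replicate 3. *Flt1* (chr5:147498414-147662826, minus strand) encodes VEGFR1, which binds VEGF-A, VEGF-B and placental growth factor and signals weakly. Its level was 13.4, 19.2 and 14.1 CPM with vehicle, 33.7, 19.8 and 20.6 CPM with spironolactone and 26.2, 22.8 and 24.6 CPM with prednisolone. It was the one gene of the 10 for which all libraries of both drug groups lay above all vehicle libraries, by 0.67 ± 0.20 with spironolactone and 0.66 ± 0.20 with prednisolone on the log2 scale. The spironolactone value fell to 0.38 without replicate 1. The lowest spironolactone library, 19.8 CPM, was close to the highest vehicle library, 19.2 CPM.

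Both the angiopoietin receptor gene and the apelin receptor gene had all 3 spironolactone libraries above the other 6, with different margins. *Tek* (chr4:94627291-94763224, plus strand) encodes TIE2, the receptor of the angiopoietins. Its level was 2.34, 4.87 and 2.65 CPM with vehicle, 9.90, 4.93 and 6.43 CPM with spironolactone and 4.34, 3.39 and 2.67 CPM with prednisolone. The lowest spironolactone library, at 4.93 CPM, only just exceeded the highest vehicle library, at 4.87 CPM. Its log2 fold change was 1.11 ± 0.32 with spironolactone, or 0.79 without replicate 1, and 0.08 ± 0.32 with prednisolone. *Aplnr* (chr2:84966569-84970267, plus strand) encodes the G protein-coupled receptor of the peptide apelin. Its level was 4.23, 5.74 and 7.04 CPM with vehicle, 15.9, 12.9 and 13.4 CPM with spironolactone and 4.86, 4.71 and 3.98 CPM with prednisolone. The spironolactone libraries were close together and far above the other 6, with no value between 7.04 and 12.9 CPM. The log2 fold change of *Aplnr* was 1.31 ± 0.19 with spironolactone, or 1.22 without replicate 1, and -0.33 ± 0.19 with prednisolone.

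*Egfl7* (chr2:26468286-26486789, plus strand) encodes a protein secreted by endothelium, and its introns hold the microRNA miR-126. Its level was 2.46, 4.55 and 4.92 CPM with vehicle, 16.3, 7.43 and 10.9 CPM with spironolactone and 4.92, 4.13 and 3.89 CPM with prednisolone. It had the highest fitted spironolactone difference of the 10, 1.54 ± 0.30 on the log2 scale or 2.90-fold, and 1.21 without replicate 1, with no overlap with either other group. *Cldn5*, at 1.50 ± 0.40, lay within that SE. It was above *Egfl7* in some fits, as with the replicate number as a block (1.52 against 1.49). The prednisolone value of *Egfl7* was 0.12 ± 0.30. *Fabp4* (chr3:10268785-10273737, minus strand) encodes the cytosolic fatty acid-binding protein 4 of capillary endothelium and adipocytes. Its level was 87.0, 80.6 and 105 CPM with vehicle, 147, 96.3 and 123 CPM with spironolactone and 67.7, 57.8 and 43.5 CPM with prednisolone. *Fabp4* was the one gene of the 10 with all prednisolone libraries below all vehicle libraries, at a log2 fold change of -0.69 ± 0.18. The spironolactone libraries overlapped vehicle, at 0.43 ± 0.18 or 0.28 without spironolactone replicate 1, and did not overlap prednisolone. On the opposite strand, annotated exons overlap those of *Cdh5* (*Gm64067*), *Egfl7* (*Agpat2* and *Mir126b*) and *Fabp4* (*Gm66293*), and whether counting used the strand is not given in the sources used here.

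**Figure D2:**
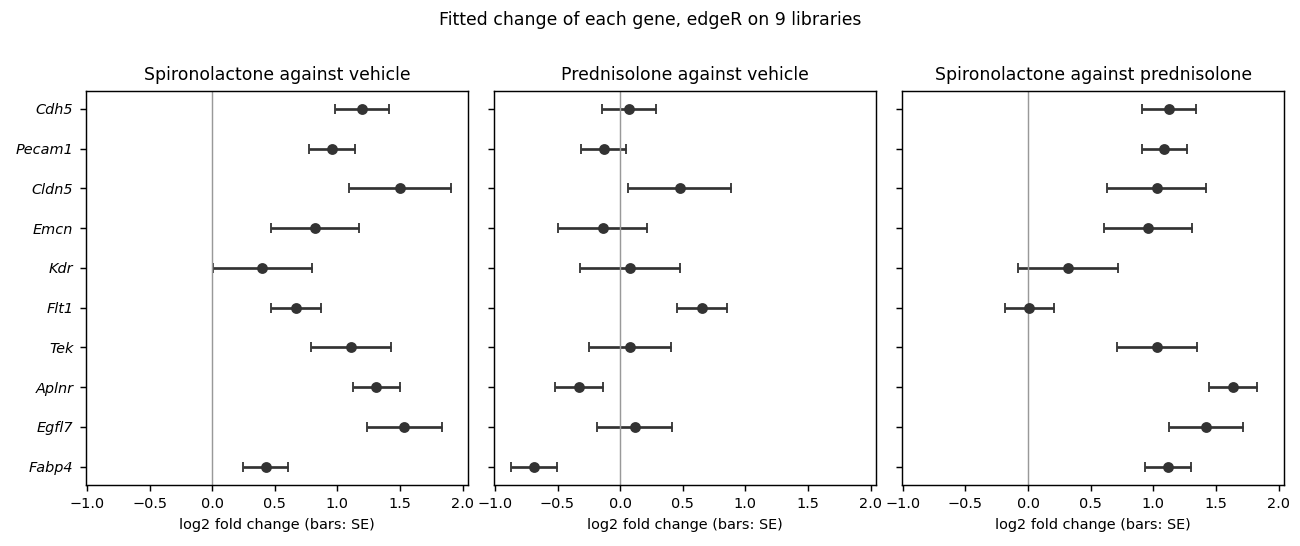
Fitted log2 fold change of each gene (horizontal axes, points) with its standard error (bars) in the 3 comparisons. All points are right of 0 for spironolactone against vehicle, from 0.40 for *Kdr* to 1.54 for *Egfl7*, and they scatter around 0 for prednisolone against vehicle.

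By groups that did not overlap, 7 of the 10 genes had all 3 spironolactone libraries above all 3 vehicle libraries: *Cdh5*, *Pecam1*, *Cldn5*, *Flt1*, *Tek*, *Aplnr* and *Egfl7*. Of all genes tested, 6.99% had this. With prednisolone, *Flt1* lay wholly above vehicle, which 10.4% of all genes tested did, and *Fabp4* wholly below, which 9.27% did. Against prednisolone, spironolactone was wholly above for 8 of the 10, all but *Kdr* and *Flt1*, and for 15.1% of all genes tested. The 10 genes were selected on these contrasts, so nothing is read from these counts.

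At an adjusted *P* under 0.05 by edgeR's quasi-likelihood test, spironolactone against vehicle called 3 of 16618 genes, or 0.0181%, and *Aplnr* was 1 of the 3. In that comparison 9 of the 10 genes and 9.29% of all genes were under an unadjusted 0.05, and DESeq2 called 6 of the 10 and 1.67% of the genes it adjusted. Prednisolone against vehicle called 1.76% of genes and 0 of the 10. There 2 of the 10 and 14.2% of all genes were under an unadjusted 0.05, and DESeq2 called 2 of the 10, *Flt1* and *Fabp4*, and 4.64% of the genes it adjusted. Spironolactone against prednisolone called 5.17% of genes and 5 of the 10, which were *Cdh5*, *Pecam1*, *Aplnr*, *Egfl7* and *Fabp4*. Of the 10, 8 were under an unadjusted 0.05 there, as were 22.5% of all genes, and DESeq2 called 7 of the 10 and 1595 of the 15892 genes it adjusted, or 10%. Nothing is read from these counts either. The call of *Cdh5* between the drugs was lost with the replicate number as a block and kept in 6 of the 9 fits that left out 1 library, and that of *Egfl7* in 5 of the 9. Between the drugs, the log2 fold change was 1.13 ± 0.22 for *Cdh5*, 1.09 ± 0.18 for *Pecam1*, 1.64 ± 0.19 for *Aplnr*, 1.42 ± 0.30 for *Egfl7* and 1.12 ± 0.18 for *Fabp4*. For *Tek* it was 1.03 ± 0.32, for *Cldn5* 1.03 ± 0.39, for *Emcn* 0.96 ± 0.35 and for *Kdr* 0.32 ± 0.40. *Flt1* was at 0.01 ± 0.20, and its sign flipped to -0.02 when libraries were scaled by their totals alone. The call of *Aplnr* against vehicle depended on the libraries: edgeR kept it in 3 of the 9 fits that left out 1 library and lost it without spironolactone replicate 1 and in a fit of the 2 groups alone.

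**Figure D3:**
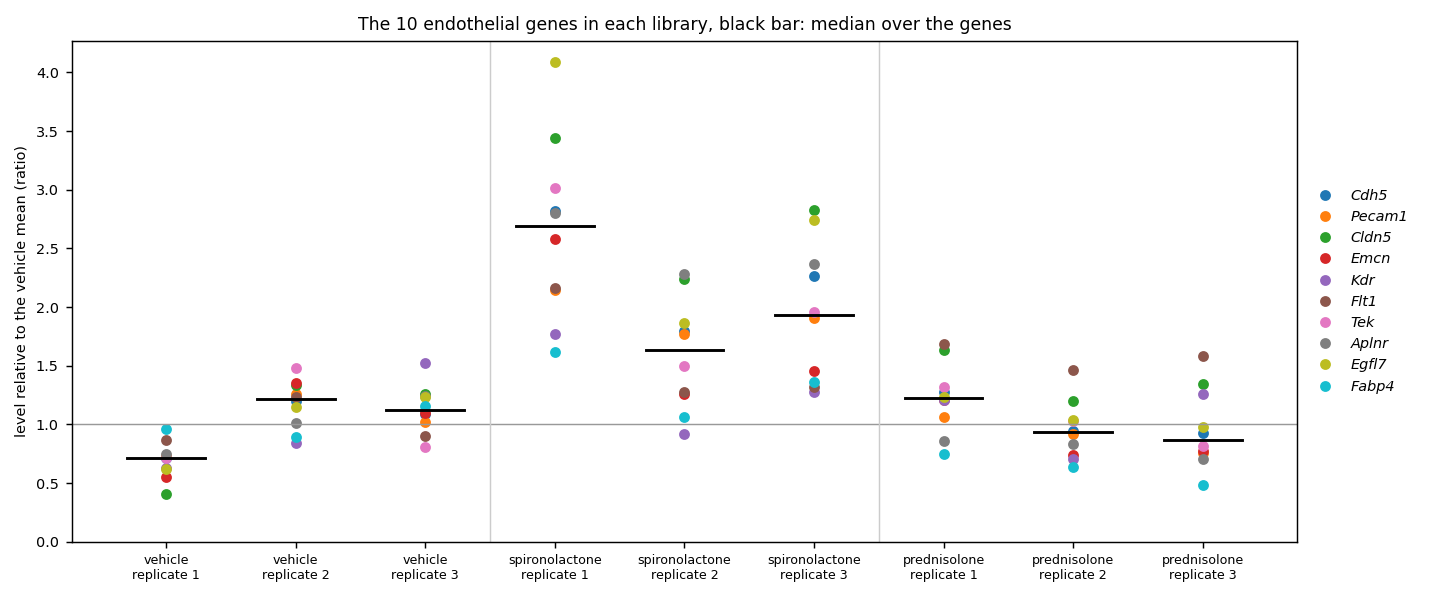
Level of each gene in each library divided by that gene's vehicle mean (vertical axis, from 0), one color per gene, with a black bar at the median of the 10 genes. The median is 2.69 in spironolactone replicate 1, 1.63 in replicate 2 and 1.93 in replicate 3, and it is 0.87 to 1.22 in the prednisolone libraries.

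Per kilobase of the canonical transcript, which allows levels of different genes to be set side by side, *Fabp4* was far above the rest with vehicle, at 66.7 ± 9.14 CPM per kb (mean ± SD, *n* = 3). *Cdh5* at 5.77 ± 1.45 and *Pecam1* at 5.43 ± 1.44 CPM per kb followed and did not differ beyond their spread. *Kdr* was at 3.52 ± 1.65, *Egfl7* at 2.73 ± 0.91 and *Flt1* at 2.26 ± 0.46 CPM per kb, each within the spread of its neighbor. *Aplnr* at 1.53 ± 0.38 and *Emcn* at 1.48 ± 0.61 CPM per kb were alike within their spread, and *Tek* at 0.66 ± 0.28 and *Cldn5* at 0.58 ± 0.30 CPM per kb were the lowest. With spironolactone, *Egfl7* reached 7.91 ± 3.05 CPM per kb, with *Pecam1* at 10.5 ± 1.04 CPM per kb and *Kdr* at 4.65 ± 1.51 CPM per kb, and its SD range overlapped those of both. With prednisolone, *Fabp4* was at 41.4 ± 8.97 CPM per kb and still the most abundant per length.

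Across the 9 libraries, most of the 10 genes kept to one profile. The Pearson correlation of each gene's log2 CPM with the mean of the other 9 genes was 0.99 for *Egfl7*, 0.99 for *Cdh5*, 0.94 for *Emcn*, 0.93 for *Pecam1*, 0.92 for *Tek*, 0.92 for *Cldn5* and 0.89 for *Aplnr*. It was lower for *Fabp4* at 0.64, *Kdr* at 0.62 and *Flt1* at 0.53. These values describe 9 points that share libraries and groups. The 10 genes were chosen by their values in these same libraries, so nothing is read from their likeness. The 8 tested genes outside the 10 whose log2 CPM was most like their mean profile over the 9 libraries were led by *Col4a1* at 0.990 and *Col4a2* at 0.989, which encode the chains of basement membrane collagen IV. *Col4a1* averaged 71.4 ± 15.5 CPM with vehicle, 142 ± 35.8 CPM with spironolactone and 76.5 ± 10.5 CPM with prednisolone (SD, *n* = 3). The others were the secreted matrix protein gene *Sparcl1* (0.987), the proteasome subunit gene *Psma5* (0.987), *Igfbp7* (0.971), which encodes a secreted binding protein, *C1qtnf9* (0.971), which encodes a secreted C1q-related protein, the peroxidasin gene *Pxdn* (0.969) and the aquaglyceroporin gene *Aqp7* (0.968). *C1qtnf9* went from 2.43 ± 0.84 CPM with vehicle to 7.39 ± 1.24 CPM with spironolactone and was 2.53 ± 0.76 CPM with prednisolone. *Psma5* had the same profile on a far smaller scale, at 40.4 ± 1.59, 45.8 ± 1.49 and 40.9 ± 1.24 CPM.

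A further list of 34 endothelial genes, none of them among the 10, gave a median log2 fold change of 1.07 for spironolactone against vehicle, 0.15 for prednisolone against vehicle and 0.93 between the drugs. Like the 10, this list and all others here were chosen with earlier results of these data known. Their medians and counts are therefore a description and support nothing about the 10. Against vehicle, edgeR called 0 of the 34 with spironolactone, although 25 were higher and 0 lower at an unadjusted *P* under 0.05, and DESeq2 called 14. The shares over all genes were 0.0181% by edgeR, 9.29% at an unadjusted *P* under 0.05 and 1.67% by DESeq2. With prednisolone edgeR called 0 of the 34, with 2 higher and 1 lower at an unadjusted *P* under 0.05, and DESeq2 called 1. Over all genes those shares were 1.76% by edgeR, 14.2% unadjusted and 4.64% by DESeq2. Between the drugs edgeR called 8 of the 34 higher with spironolactone and 0 lower, beside 5.17% of all genes in either direction, and none of the 8 passed without spironolactone replicate 1 or 3 or without prednisolone replicate 2 or 3. Without spironolactone replicate 1 the median between the drugs was 0.70.

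Of the 8 genes, *Tie1*, which encodes the partner receptor of TIE2, was 6.92 ± 1.52 CPM with vehicle, 16.4 ± 3.04 CPM with spironolactone and 8.90 ± 1.78 CPM with prednisolone, a log2 fold change of 0.88 ± 0.20 between the drugs (adjusted *P* = 0.0232 by edgeR). *Esam*, an adhesion protein gene, differed by 1.04 ± 0.24 (adjusted *P* = 0.0271), and *Robo4*, the gene of an endothelial guidance receptor, by 1.21 ± 0.30 (adjusted *P* = 0.0334). *Nos3*, which encodes endothelial nitric oxide synthase, differed by 1.39 ± 0.32 (adjusted *P* = 0.0256). The transcription factor gene *Sox17* went from 0.99 ± 0.46 CPM with vehicle to 4.13 ± 1.16 CPM with spironolactone and was 1.50 ± 0.18 CPM with prednisolone, a difference of 1.46 ± 0.35 between the drugs (adjusted *P* = 0.0297). *Meox2*, another transcription factor gene, differed by 0.97 ± 0.23 (adjusted *P* = 0.0303), and *Ramp2*, which encodes a receptor subunit for adrenomedullin, by 0.99 ± 0.27 (adjusted *P* = 0.0499). *Ramp2* lost its call under 3 of the 6 other settings of the test, and *Meox2* and the others named here kept theirs under all 6. *Icam2*, an adhesion gene also read in leukocytes, differed by 0.83 ± 0.20 (adjusted *P* = 0.0307), but its spironolactone value against vehicle was 0.10 ± 0.20 and its prednisolone value -0.73 ± 0.20.

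Of the 34, 31 were above 0 with spironolactone and 3 below: *Calcrl* at -0.15, *Cd93* at -0.11 and *Rgcc* at -0.53 on the log2 scale, none of which passed the test. *Cd93*, whose product is also carried by monocytes, was the most abundant of the 34 at 777 CPM with vehicle. *Vwf*, which encodes von Willebrand factor of endothelium and platelets, was 42.0 ± 3.79 CPM with vehicle and 54.7 ± 6.40 CPM with spironolactone, a log2 fold change of 0.38 ± 0.11 (adjusted *P* = 0.212). *Eng*, which encodes the TGF-β co-receptor endoglin and is also expressed by macrophages, was 98.0 ± 9.54 CPM with vehicle and 123 ± 1.28 CPM with spironolactone, a log2 fold change of 0.33 ± 0.09 (adjusted *P* = 0.209). Exons of *Tie1*, *Eng*, *Icam2*, *Nos3*, *Sox17* and *Rgcc* overlap annotated exons on the opposite strand, as do those of *Ptprb*, *Vegfa*, *Vegfc*, *Nrp2*, *Flt4*, *Notch3*, *Mcam*, *Pdgfra*, *Col1a2*, *Col3a1*, *Adipoq*, *Cidec*, *Car3*, *Itga2b*, *Acta1*, *Ckm*, *Myh4*, *Myh1*, *Des* and *Prox1*.

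The ligands and partner receptors of the 10 genes' pathways, a list of 14, had 13 genes tested, and *Apela*, the gene of the second ligand of the apelin receptor, had no counts in any library. Their median log2 fold change was 0.71 with spironolactone, 0.36 with prednisolone and 0.21 between the drugs. Against vehicle, edgeR called 0 of the 13 with spironolactone, with 4 higher and 1 lower at an unadjusted *P* under 0.05, and DESeq2 called 2 higher (*Apln* and *Tie1*) and 1 lower (*Vegfa*). Over all genes the shares were 0.0181% by edgeR, 9.29% unadjusted and 1.67% by DESeq2. The 1 gene that edgeR called with prednisolone was *Vegfa*, the gene of the main ligand of VEGFR2, and it was lower. DESeq2 called 2 there, *Vegfa* lower and *Nrp2* higher, and the shares over all genes were 1.76% by edgeR and 4.64% by DESeq2. The level of *Vegfa* was 91.4, 74.7 and 78.3 CPM with vehicle, 40.5, 45.0 and 43.2 CPM with spironolactone and 52.3, 42.5 and 25.7 CPM with prednisolone. Both drug groups lay below all vehicle libraries, by -0.93 ± 0.21 with spironolactone (adjusted *P* = 0.164 by edgeR) and -1.02 ± 0.21 with prednisolone (adjusted *P* = 0.0377). The prednisolone call held in 2 of the 9 fits that left out 1 library and was lost in a fit of the 2 groups alone. Over all alternatives the log2 fold changes were -1.26 to -0.78. *Vegfb*, a ligand of VEGFR1, was 26.0 ± 4.75 CPM with vehicle, 29.3 ± 0.50 CPM with spironolactone and 24.1 ± 1.70 CPM with prednisolone. *Vegfc*, a ligand of the lymphatic receptor VEGFR3, was 0.39 ± 0.21 CPM with vehicle and 0.74 ± 0.30 CPM with spironolactone.

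*Apln*, which encodes apelin, the ligand of the *Aplnr* product, was 0.456, 0.874 and 0.436 CPM with vehicle, 2.21, 1.77 and 1.87 CPM with spironolactone and 0.911, 0.306 and 0.475 CPM with prednisolone. Its 3 spironolactone libraries lay above the other 6, as those of its receptor gene did. It was higher with spironolactone than with prednisolone by 1.78 ± 0.45 on the log2 scale (adjusted *P* = 0.0359 by edgeR), and against vehicle the value was 1.72 ± 0.45 (adjusted *P* = 0.174). The call between the drugs held in 4 of the 9 fits that left out 1 library and was lost without any one of the 3 spironolactone libraries. *Nrp2*, a VEGF co-receptor gene that macrophages also express, was 137 ± 28.6 CPM with vehicle, 127 ± 9.87 CPM with spironolactone and 195 ± 11.6 CPM with prednisolone. It was lower with spironolactone than with prednisolone by -0.63 ± 0.13 (adjusted *P* = 0.0145). The call of *Nrp2* was kept in 7 of the 9 fits that left out 1 library and lost without spironolactone replicate 3 or prednisolone replicate 1. Between the drugs edgeR called *Apln* and *Tie1* higher and *Nrp2* lower in this list, beside 5.17% of all genes. There DESeq2 also called *Ptprb*, a phosphatase gene of endothelium, higher, beside 1595 of the 15892 genes it adjusted.

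**Figure D4:**
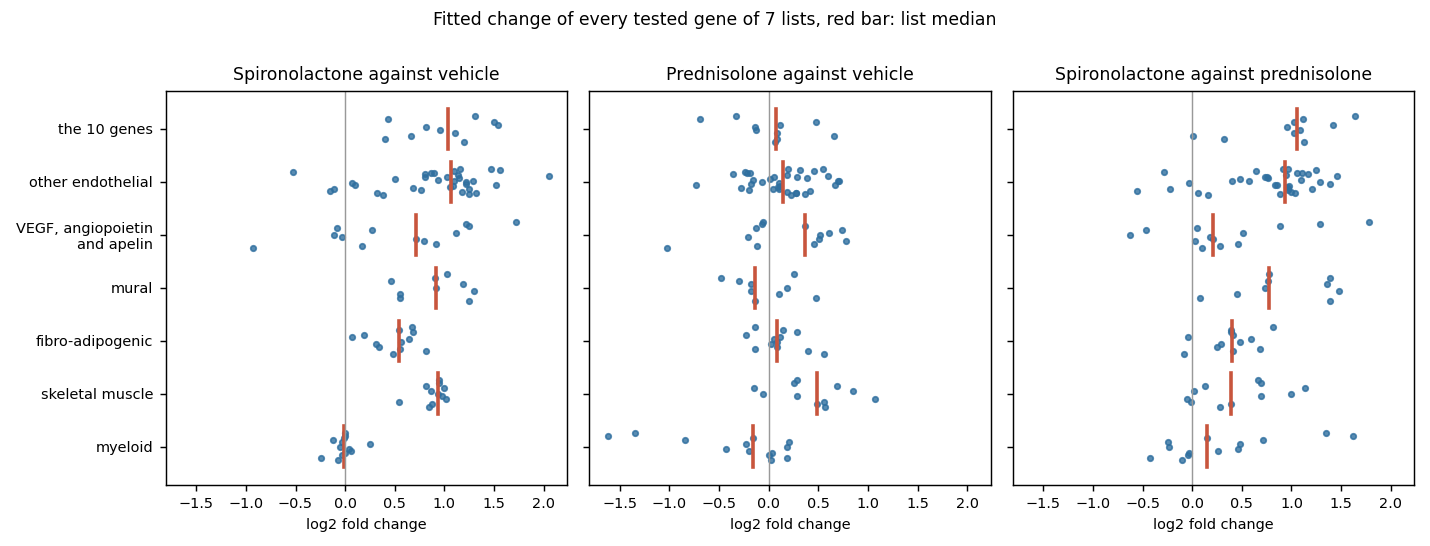
Fitted log2 fold change (horizontal axes) of every tested gene of 7 lists, one point per gene, with the list median as a red bar, in the 3 comparisons. For spironolactone against vehicle the medians are 1.03 for the 10 genes, 1.07 for other endothelial genes, 0.92 for mural, 0.94 for skeletal muscle, 0.54 for fibro-adipogenic and -0.01 for myeloid genes.

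Genes of other muscle cells are given by their values beside those of the 10, and their part in these results was not tested. Markers of mural cells, the pericytes and smooth muscle cells around vessels, summed to 42.6 to 102 CPM with vehicle, 107 to 149 CPM with spironolactone and 64.4 to 68.6 CPM with prednisolone. All 9 tested of 11 were above 0 for spironolactone against vehicle, with a median log2 fold change of 0.92, and edgeR called 0 of them there, with 4 under an unadjusted 0.05, and DESeq2 called *Rgs5* and *Mcam*. Over all genes the shares in that comparison were 0.0181% by edgeR, 9.29% unadjusted and 1.67% by DESeq2, and edgeR called 5.17% between the drugs. Between the drugs the pericyte gene *Rgs5* (1.39 ± 0.27, adjusted *P* = 0.0215 by edgeR) and *Mcam*, the gene of CD146 of pericytes and endothelium (1.39 ± 0.26, adjusted *P* = 0.0104), were higher with spironolactone, calls kept in 6 and 7 of the 9 fits that left out 1 library. *Rgs5* was 13.3, 19.3 and 10.6 CPM with vehicle, 47.1, 26.1 and 29.3 CPM with spironolactone and 15.7, 13.0 and 10.6 CPM with prednisolone. The pericyte receptor gene *Pdgfrb* was 6.02 ± 1.79 CPM with vehicle and 8.86 ± 2.32 CPM with spironolactone, and *Notch3* was 8.56 ± 3.26 and 12.6 ± 4.52 CPM.

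The 12 skeletal muscle genes summed to 286 to 433 CPM with vehicle, 540 to 918 CPM with spironolactone and 421 to 638 CPM with prednisolone. All 11 tested were above 0 for spironolactone, with a median log2 fold change of 0.94, 10 of them at an unadjusted *P* under 0.05, 0 called by edgeR and 7 by DESeq2, beside 9.29%, 0.0181% and 1.67% over all genes. The skeletal actin gene *Acta1* was 137 ± 31.6 CPM with vehicle, 246 ± 64.4 CPM with spironolactone and 204 ± 41.8 CPM with prednisolone. *Ckm*, muscle creatine kinase, was 27.4 ± 7.48 CPM with vehicle and 50.2 ± 13.9 CPM with spironolactone, and the fast myosin gene *Myh4* 13.1 ± 2.91 and 19.2 ± 5.67 CPM. *Myh1*, another fast myosin gene, was higher with prednisolone by 1.07 ± 0.22 on the log2 scale (adjusted *P* = 0.0239 by edgeR), a call kept in 5 of the 9 fits that left out 1 library. The spironolactone value of *Myh1* against vehicle was 1.01 ± 0.22 (adjusted *P* = 0.128 by edgeR), with all 3 libraries above vehicle and a call by DESeq2, and the value between the drugs was -0.056 ± 0.21 (adjusted *P* = 0.915). The muscle list had its highest sum in spironolactone replicate 3, and the 10 endothelial genes had theirs in spironolactone replicate 1.

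The 12 fibro-adipogenic progenitor genes summed to 1108 to 1405 CPM with vehicle, 1308 to 1776 CPM with spironolactone and 1359 to 1409 CPM with prednisolone. Most of the vehicle sum was *Gsn*, *Col1a1*, *Col3a1* and *Col1a2*, with means of 486, 277, 276 and 188 CPM. For spironolactone against vehicle the median log2 fold change was 0.54. There edgeR called 0 of 12, 7 were under an unadjusted 0.05 and DESeq2 called 2, beside 0.0181%, 9.29% and 1.67% over all genes. *Pdgfra*, the defining receptor gene of these progenitors, was 3.79 ± 0.76 CPM with vehicle and 5.27 ± 2.25 CPM with spironolactone, the matrix gene *Dcn* 24.3 ± 7.05 and 42.6 ± 10.7 CPM, and *Lum* 9.31 ± 2.31 and 13.6 ± 4.73 CPM. Markers of adipocytes, which like macrophages are also known for *Fabp4*, summed to 5.68 to 8.07 CPM with vehicle, 7.46 to 14.2 CPM with spironolactone and 4.48 to 8.83 CPM with prednisolone. Of the 8, 4 were tested, and edgeR and DESeq2 called 0 for either drug against vehicle. Under an unadjusted 0.05 there was 1 with spironolactone and 0 with prednisolone. Over all genes the shares with spironolactone were 0.0181% by edgeR, 9.29% unadjusted and 1.67% by DESeq2. With prednisolone those shares were 1.76%, 14.2% and 4.64%. Most of the adipocyte sum was *Car3*, a carbonic anhydrase gene of adipocytes and skeletal muscle, at 5.15 ± 1.43 CPM with vehicle, 9.26 ± 2.52 CPM with spironolactone and 5.14 ± 1.67 CPM with prednisolone. Its log2 fold change was 0.84 ± 0.28 for spironolactone against vehicle (adjusted *P* = 0.331 by edgeR) and 0.85 ± 0.28 between the drugs (adjusted *P* = 0.0948), where DESeq2 called it. *Adipoq* and *Plin1* were each at most 0.0935 CPM in any library and *Cidec* at most 0.214 CPM. Platelet genes, among cells that share *Pecam1*, summed to 222 to 292 CPM with vehicle, 244 to 258 CPM with spironolactone and 204 to 260 CPM with prednisolone, led by *Pf4* at 191 to 276 CPM, while *Ppbp* was at most 20.6 CPM and *Itga2b* at most 2.06 CPM. Muscle stem cell genes summed to 33.0 to 65.2, 43.6 to 72.4 and 39.9 to 73.6 CPM in the 3 groups. Most of that sum was *Des*, with means of 35.1 CPM with vehicle, 44.7 CPM with spironolactone and 44.2 CPM with prednisolone. *Pax7* was at most 4.66 CPM, *Myf5* 1.96 CPM and *Myod1* 8.02 CPM. Of 5 tested genes in each of these lists, edgeR and DESeq2 called 0 in any comparison. Under an unadjusted 0.05 there were 0 platelet genes, and 1 muscle stem cell gene in each comparison with the prednisolone group. The shares over all genes for spironolactone against vehicle were 0.0181% by edgeR, 9.29% unadjusted and 1.67% by DESeq2. For prednisolone against vehicle they were 1.76%, 14.2% and 4.64%. Between the drugs they were 5.17% by edgeR, 22.5% unadjusted and 1595 of the 15892 genes that DESeq2 adjusted. With 5 genes per list, counts of 0 or 1 cannot be told apart from these shares.

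In the myeloid list, edgeR and DESeq2 called 0 of 13 genes for either drug against vehicle. In each comparison 1 of the 13 was lower at an unadjusted *P* under 0.05. Over all genes the shares with spironolactone were 0.0181% by edgeR, 9.29% unadjusted and 1.67% by DESeq2. With prednisolone those shares were 1.76%, 14.2% and 4.64%. The median log2 fold change of the myeloid list was -0.01 with spironolactone and -0.16 with prednisolone. *Itgam* was lower with spironolactone than with prednisolone by -0.43 ± 0.11 on the log2 scale (adjusted *P* = 0.0353), at 1044 ± 109 against 1407 ± 110.0 CPM, and kept this call in 4 of the 9 fits that left out 1 library. It was the 1 gene of the 13 that edgeR called between the drugs, beside 5.17% of all genes, with 3 higher and 1 lower at an unadjusted *P* under 0.05. DESeq2 also called *C1qa*, a complement gene of macrophages, higher, which edgeR put at 0.48 ± 0.15 (adjusted *P* = 0.0799). In that comparison DESeq2 called 1595 of the 15892 genes it adjusted. Lymphatic endothelial genes summed to 155 to 194 CPM with vehicle, 127 to 142 CPM with spironolactone and 249 to 330 CPM with prednisolone. Most of this sum was *Pdpn*, at 158 ± 21.8 CPM with vehicle, and the median log2 fold change of the 6 genes was -0.03 with spironolactone, 0.32 with prednisolone and 0.05 between the drugs. The list's defining transcription factor gene, *Prox1*, was at or below 1.28 CPM in all libraries.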

How the data were processed

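RNA of sorted CD45+CD11b+ cells was read in 9 libraries. The authors deposited raw counts per gene for each library, and per the submitters' processing notes they used HISAT2 2.2.1, HTSeq 0.11.3 and DESeq2 1.32.0 with the mouse build mm39. The annotation release and the strand setting are not given in the sources used here. The deposited tables of the authors' own comparisons hold fold changes and p-values and were not used. Lines that name no gene held 17.2% to 21.8% of each library's reads and were left out.

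Counts were tested in R 4.3.3 with edgeR 4.0.16 (TMM scaling, filterByExpr with a minimum count of 10 and a total of 15, robust quasi-likelihood fit of all 9 libraries by group, two-sided), which tested 16618 of 50559 genes, with Benjamini-Hochberg adjustment over all of them and calls at 0.05. The script was tested on simulated data. Libraries of a group differed by more than sampling noise (chi-square per degree of freedom 18.0 to 57.8), so each counted as 1 sample. The 10 genes and all lists were chosen with earlier results of these data known. Named besides the 10 are the first 3 genes of each list, every gene of a list called in a comparison (at most 8 per list), and the 8 genes most like the mean profile of the 10. *Calcrl*, *Cd93*, *Rgcc*, *Apela*, *Car3*, *Ptprb*, *C1qa*, *Des*, *Gsn*, *Col1a1*, *Col1a2* and *Col3a1* were named after their values were seen. Positions and promoter windows come from GENCODE M39 on GRCm39. Promoter sequences of 2 of the 10 genes are printed, and those of the others are not reported here. The alternatives were DESeq2 1.42.0, other scalings, no filter, the 2 groups alone, a replicate block and leaving out each library.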

Additional observations from a re-analysis of the deposited data

How the results depend on the processing

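The median log2 fold change of the 10 genes moved by less than the spread between replicates under every alternative run, while the counts of calls shifted widely. When each library was left out in turn, the median ranged from 0.83 to 1.24 for spironolactone against vehicle, from -0.15 to 0.18 for prednisolone against vehicle and from 0.91 to 1.22 between the drugs. For the 34 other endothelial genes it ranged from 0.81 to 1.22, -0.05 to 0.32 and 0.70 to 1.06. For spironolactone against vehicle, the genes called were 3, but 266 with DESeq2, 528 with no low-count filter, 8 with the replicate block and 0 to 34 with a library left out. The called members were 1, but 6 with DESeq2, 9 with no filter, 0 with the 2 groups alone and 0 to 3 with a library left out, and the other endothelial genes called were 0, but 14, 23 and 0 to 2 with DESeq2, no filter and a library left out. For prednisolone against vehicle, genes called went from 293 to 684 with DESeq2, 1019 with no filter and 69 to 826 with a library left out. Members went from 0 to 2 with DESeq2, 2 with no filter, 1 with the 2 groups alone (*Flt1*) and 0 to 1 with a library left out, and other endothelial genes from 0 to 1 with DESeq2, 5 with no filter and 0 to 2 with a library left out. Between the drugs, genes called went from 859 to 1595 with DESeq2, 1940 with no filter, 1598 with the 2 groups alone and 232 to 1898 with a library left out. Members stayed between 3 and 8 of 10 with a library left out, and other endothelial genes went from 8 to 15 with DESeq2, 23 with no filter, 14 with the 2 groups alone and 0 to 15 with a library left out. They were 0 without spironolactone replicate 1 or 3 and without prednisolone replicate 2 or 3. The cause of these shifts was not tested.

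Small prednisolone differences changed sign with a library left out. Without vehicle replicate 1, *Cdh5* was -0.12, *Kdr* -0.16, *Tek* -0.11 and *Egfl7* -0.14. Without vehicle replicate 2, *Kdr* was -0.026, *Pecam1* 0.066 and *Emcn* 0.15, and without vehicle replicate 3, *Tek* was -0.050. Without prednisolone replicate 1, *Cdh5* was -0.096, *Kdr* -0.024 and *Tek* -0.11, and without prednisolone replicate 3, *Kdr* was -0.062. Over all libraries left out, the ranges were -0.12 to 0.22 for *Cdh5*, -0.16 to 0.52 for *Kdr*, -0.11 to 0.48 for *Tek*, -0.32 to 0.066 for *Pecam1*, -0.43 to 0.15 for *Emcn* and -0.14 to 0.30 for *Egfl7*. *Flt1* between the drugs changed sign to -0.021 with library totals, -0.0065 with no filter and -0.010 with the replicate block, and ranged from -0.28 (without spironolactone replicate 1) through -0.042 (without prednisolone replicate 2) to 0.14 with a library left out. Deviations of libraries of the same number correlated at -0.04 to 0.15, above 0.1 in 2 of 9 pairs. Those 2 were vehicle with spironolactone, at 0.12 for replicate 1 and 0.15 for replicate 3. Differently numbered libraries gave -0.17 to 0.044. These values do not settle whether the numbers pair the vehicle and spironolactone libraries, so the replicate block was kept as an alternative. With the replicate block, 4 members were called between the drugs and *Cdh5* lost its call. It also ended the calls of *Ramp2* and *Lyve1* between the drugs. The genes of other lists that were called were run under the same alternatives after their values were seen, and all kept their direction.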

Other observations

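Of the 6 lymphatic genes, 4 were above 0 and 2 below for prednisolone against vehicle, and edgeR called 1 of them, *Pdpn*, beside 1.76% of all genes. DESeq2 called 2, beside 4.64%. Between the drugs both tools called 2 lower, *Pdpn* and *Lyve1*. The shares over all genes there were 5.17% by edgeR and 1595 of the 15892 genes that DESeq2 adjusted. *Pdpn*, which encodes podoplanin of lymphatic endothelium, fibroblasts and inflammatory macrophages, was 149, 141 and 182 CPM with vehicle, 111, 127 and 119 CPM with spironolactone and 301, 263 and 219 CPM with prednisolone. It was higher with prednisolone than with vehicle by 0.73 ± 0.12 on the log2 scale (adjusted *P* = 0.0108 by edgeR) and lower with spironolactone than with prednisolone by -1.13 ± 0.13 (adjusted *P* = 0.000414), and kept these calls in 7 and 9 of the 9 fits that left out 1 library. *Lyve1*, a hyaluronan receptor gene of lymphatic endothelium and of resident macrophages, was 16.5, 10.5 and 7.54 CPM with vehicle, 6.80, 11.7 and 12.3 CPM with spironolactone and 25.2, 41.9 and 26.3 CPM with prednisolone. It was lower with spironolactone than with prednisolone by -1.60 ± 0.34 (adjusted *P* = 0.0338), while its value for prednisolone against vehicle, 1.44 ± 0.34, had an adjusted *P* of 0.0816 by edgeR and was called, as higher, by DESeq2. The *Lyve1* call was kept in 2 of those 9 fits. *Flt4*, the gene of the lymphatic VEGF receptor, was 1.55 CPM with vehicle, 3.37 CPM with spironolactone and 2.36 CPM with prednisolone, and did not pass the test in any of the 3 comparisons. No explanation was tested for these values.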
